A study of Mus musculus with 16 samples.

Results

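The transcripts of 10 activity-induced genes were followed in aged mice given an antagonist of the aryl hydrocarbon receptor (AhR). They were the 3 early growth response genes Egr1, Egr2 and Egr3, the 3 orphan nuclear receptor genes Nr4a1, Nr4a2 and Nr4a3, and Arc, Ier2, Dusp1 and Btg2. The genes were taken by symbol from the normalized expression tables, and all 10 were found in both, among 21011 genes in skeletal muscle and 38933 in cortical bone. Bulk RNA-seq covered 16 libraries, 8 from the tibialis anterior muscle and 8 from the cortical bone shaft, with 4 mice given BAY and 4 given vehicle (VEH) in each tissue. All mice were female C57BL/6, aged 18 months at the start. BAY is BAY2416964, an AhR antagonist, given by oral gavage at 30 mg/kg on 5 days of the week for 8 weeks, and VEH was the ethanol, Solutol and water mixture alone. The drug reached the whole animal and not 1 tissue alone. Marrow cells had been taken from the bone and the shaft digested with collagenase before its RNA was prepared.

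These are immediate early genes, which most cells transcribe within minutes of a stimulus from factors that are already present and then shut off again. Growth factor and stress signals reach them largely through MAP kinases and serum response factor (SRF), which binds a CArG box, and calcium and cyclic AMP signals largely through CREB, which binds TGACGTCA or the shorter TGACG. In skeletal muscle Nr4a1 and Nr4a3 are known for their rise with exercise and adrenergic signals, and in bone Egr1 and its neighbours are known to respond to loading and to parathyroid hormone. AhR itself is a ligand-activated transcription factor that binds DNA at elements with a GCGTG core.

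Levels are given as counts scaled to the library total (CPM), recovered from the deposited log2 values, with the number of reads where it limits the precision. The reads on genes ran from 6131710 to 9261934 in muscle and from 930307 to 6951827 in bone, so that 3 reads were worth 0.324 to 0.489 CPM in muscle and 0.432 to 3.22 CPM in bone. The 8 muscle libraries carried the markers of muscle fibres at a summed 78810 to 142758 CPM. All 5 osteoblast and all 5 osteocyte markers were found in the bone table, and their sums varied widely, from 856 to 18153 CPM for osteoblast markers and from 71.5 to 3795 CPM for osteocyte markers. The bone libraries also held muscle fibre markers, at 14.6 to 3459 CPM in VEH and 37.3 to 21056 CPM in BAY. Genes of the olfactory receptor family (Olfr), odorant receptors of the nasal epithelium, took 0.0513% to 3.52% of the CPM of the bone libraries against at most 0.00330% in muscle. In tissue of mixed cells, fewer cells of a type and less RNA per cell cannot be told apart.

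In skeletal muscle 5 of the 10 genes were higher in BAY than in VEH at an unadjusted limma P under 0.05, namely Nr4a1, Egr1, Dusp1, Btg2 and Arc, and none was lower. Over all 21011 genes 6.71% were higher at that threshold and 3.07% were lower, and 9.49% were higher among genes whose mean reached 1 CPM. With voom weights on the recovered reads 6 of the 10 were higher and 0 lower, against 7.59% and 2.96% of all genes. The median log2 fold change of the 10 genes was 0.96, against 0.06 over all genes, and 9 of the 10 had a value above 0, against 55.2% of all genes. With the study's limits of a fold change of at least 2 and an unadjusted P under 0.05, 3 genes passed as higher (Egr1, Nr4a1 and Arc), against 1.33% of all genes higher and 1.09% lower. With a pseudocount of 1 CPM 2 of the 10 passed both limits, without Arc. No gene of the muscle table passed an adjusted P of 0.05 in limma, where 2056 (9.79%) passed an unadjusted P of 0.05, and the smallest adjusted P was 0.184.

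**Figure D1:**
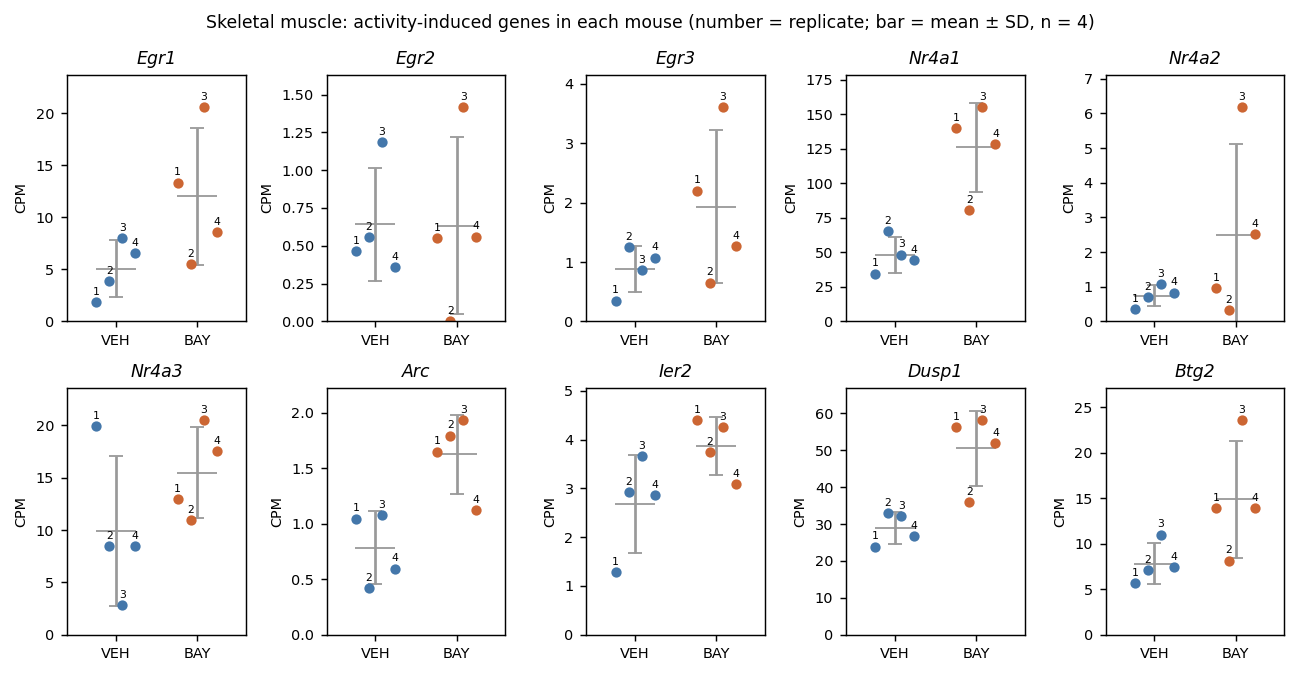
CPM of the 10 genes in skeletal muscle (vertical axes, linear, each from 0), with VEH and BAY on the horizontal axis, 1 point per mouse numbered by replicate, and bars for the mean ± SD of 4 mice. Every BAY point lay above every VEH point for Nr4a1, Arc and Dusp1, and BAY replicate 3 was the highest of the 8 mice for 9 of the 10 genes.

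The NR4A receptors bind DNA without a known natural ligand, so that the amount of transcript largely sets their activity. Nr4a1 (ENSMUSG00000023034, mm39, chromosome 15, 101152150 to 101172676, plus strand) stood at 34.6, 65.4, 48.5 and 44.5 CPM in VEH replicates 1 to 4 and at 140.2, 80.4, 155 and 128 CPM in BAY replicates 1 to 4. All 4 BAY mice lay above all 4 VEH mice, and BAY replicate 2 was the closest to VEH. The means were 48.2 ± 12.8 CPM in VEH and 126 ± 32.4 CPM in BAY (SD, n = 4 each), a ratio of 2.61, and the log2 fold change was 1.38 (SE 0.21) with a 95% interval of 0.92 to 1.84 (limma, unadjusted P = 1.75e-05, adjusted P = 0.184). The exact permutation test over the 70 assignments of mice gave P = 0.0286, the smallest that 4 against 4 allows (two-sided). With voom weights on the recovered reads the adjusted P of Nr4a1 was 0.00207, 1 of 25 genes (0.119% of the table) under 0.05, and with a pseudocount of 1 or 0.1 CPM or without genes under a mean of 1 CPM its adjusted limma P was 0.00375, 0.00114 and 0.0224. With median centring it was 0.0723, with no trend 0.450, with the replicate block 0.519, and with 1 mouse left out 0.0668 to 0.651, all by limma.

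Nr4a3 (chromosome 4, 48045153 to 48086447, plus strand), a receptor of the same family that exercise also induces, stood at 19.9, 8.50, 2.81 and 8.47 CPM in VEH and at 12.9, 10.9, 20.5 and 17.5 CPM in BAY. The groups overlapped, with VEH replicate 1 the second highest of the 8 mice. The log2 fold change was 0.91 (SE 0.43; limma, unadjusted P = 0.0533, adjusted P = 0.521). Single VEH mice decided that value, which was 1.36 without VEH replicate 1 (limma, unadjusted P = 0.00331, adjusted P = 0.651) and 0.41 without VEH replicate 3. Nr4a3 also fell under an unadjusted P of 0.05 with voom weights (adjusted P = 0.299 by voom), with a pseudocount of 1 CPM or 0.1 CPM (adjusted P = 0.364 and 0.313 by limma) and among genes whose mean reached 1 CPM (adjusted P = 0.337 by limma). Nr4a2 (chromosome 2, 56996842 to 57014015, minus strand), the family member best known from dopamine neurons, had 2 to 48 reads per library. It stood at 0.349, 0.697, 1.08 and 0.835 CPM in VEH and at 0.963, 0.326, 6.19 and 2.52 CPM in BAY. Only BAY replicates 3 and 4 stood above every VEH mouse, and the log2 fold change of 1.12 had an SE of 0.79 (limma, unadjusted P = 0.178, adjusted P = 0.666). Without BAY replicate 2 it was 1.85 (limma, unadjusted P = 0.0179, adjusted P = 0.453), and without BAY replicate 3 it was 0.44. With a pseudocount of 1 CPM it was 0.73 (limma, unadjusted P = 0.0470, adjusted P = 0.476).

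The EGR proteins are zinc finger factors that bind a GTGGGCG core. Egr1 (ENSMUSG00000038418, chromosome 18, 34992876 to 34998037, plus strand), the family member most widely induced by growth factors and strain, stood at 1.86, 3.90, 7.99 and 6.56 CPM in VEH and at 13.3, 5.54, 20.6 and 8.55 CPM in BAY. BAY replicates 1, 3 and 4 were the 3 highest of the 8 mice, and BAY replicate 2 lay within the range of VEH. The means were 5.08 ± 2.73 CPM in VEH and 12.02 ± 6.58 CPM in BAY (SD, n = 4 each). BAY against VEH gave a log2 fold change of 1.27 (SE 0.45) with a 95% interval of 0.32 to 2.23 (limma, unadjusted P = 0.0129, adjusted P = 0.387), and the exact permutation test gave P = 0.114. With no trend in the limma fit its unadjusted P was 0.0665 and its adjusted P 0.660. It was also no longer under an unadjusted P of 0.05 when VEH replicate 1 was left out (limma, log2 fold change 0.86, adjusted P = 0.695) or BAY replicate 3 (limma, log2 fold change 0.96, adjusted P = 0.615).

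Egr3 (chromosome 14, 70314652 to 70320063, plus strand), which muscle spindles need to form, was low, with 3 to 28 reads per library. It stood at 0.349, 1.25, 0.864 and 1.07 CPM in VEH and at 2.20, 0.652, 3.61 and 1.26 CPM in BAY. The order of the mice resembled that of Egr1, with BAY replicates 1 and 3 highest and BAY replicate 2 inside the VEH range. The log2 fold change of 1.00 had an SE of 0.61 (limma, unadjusted P = 0.125, adjusted P = 0.620). Without BAY replicate 2 it was 1.43 (limma, unadjusted P = 0.0320, adjusted P = 0.502), and it was 0.60 without VEH replicate 1 and 0.61 without BAY replicate 3.

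Egr2 (chromosome 10, 67371305 to 67378018, plus strand), the myelination factor of Schwann cells also called Krox20, had 0 to 11 reads per library. Its level was 0.466, 0.558, 1.19 and 0.358 CPM in VEH and 0.550, 0, 1.42 and 0.561 CPM in BAY. The means of 0.642 ± 0.373 and 0.633 ± 0.586 CPM (SD, n = 4 each) lay close together. Its fitted log2 fold change of -2.33 (standard error 2.05) rested on the 0 reads of BAY replicate 2, a count that allows up to 0.489 CPM, and was -0.05 with a pseudocount of 1 CPM and 0.40 without that mouse. A difference in Egr2 was not detectable at this depth.

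Dusp1 and Btg2 are known as brakes, the first on MAP kinases and the other on proliferation. Dusp1 (ENSMUSG00000024190, chromosome 17, 26724564 to 26781102, minus strand), a phosphatase that inactivates MAP kinases, stood at 23.9, 33.04, 32.1 and 26.7 CPM in VEH and at 56.3, 35.9, 58.2 and 51.9 CPM in BAY. The 4 BAY mice lay above the 4 VEH mice, with BAY replicate 2 again the lowest of its group. The means were 28.9 ± 4.37 and 50.6 ± 10.1 CPM (SD, n = 4 each), the log2 fold change was 0.79 (SE 0.17; limma, unadjusted P = 0.000340, adjusted P = 0.206), and the exact permutation test gave P = 0.0286. The adjusted P was 0.0428 with a pseudocount of 0.1 CPM and 0.0597 with 1 CPM by limma, 0.0661 by voom, and 0.533 by limma with no trend.

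Btg2 (ENSMUSG00000020423, chromosome 1, 134002908 to 134006858, minus strand), an antiproliferative protein that recruits the deadenylase complex to transcripts, stood at 5.70, 7.11, 11.01 and 7.40 CPM in VEH and at 13.9, 8.15, 23.6 and 13.9 CPM in BAY. BAY replicate 2 lay below VEH replicate 3 and the other 3 BAY mice above all VEH mice. The log2 fold change was 0.87 (SE 0.28; limma, unadjusted P = 0.00848, adjusted P = 0.355), and the exact permutation test gave P = 0.0571. Nr4a1, Dusp1 and Btg2 stayed under an unadjusted limma P of 0.05 in each of the 8 fits that left out 1 mouse.

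Arc (ENSMUSG00000022602, chromosome 15, 74540932 to 74544419, minus strand), best known as a synaptic protein that forms capsids carrying its own transcript, was near the floor with 3 to 15 reads. It stood at 1.05, 0.418, 1.08 and 0.596 CPM in VEH and at 1.65, 1.79, 1.94 and 1.12 CPM in BAY. The groups did not overlap, but VEH replicate 3 and BAY replicate 4 were 1.08 and 1.12 CPM. The log2 fold change of 1.13 had an SE of 0.50 (limma, unadjusted P = 0.0407, adjusted P = 0.495), and 3 of the 8 fits without 1 mouse kept an unadjusted P under 0.05. Without VEH replicate 2 it was 0.86 (limma, unadjusted P = 0.101), and without VEH replicate 4 or BAY replicate 1, 2 or 3 the unadjusted P ran from 0.0725 to 0.0912 by limma. With the replicate block it was 0.0543 by limma. With a pseudocount of 1 CPM the log2 fold change was 0.56, below the fold limit (limma, unadjusted P = 0.0201, adjusted P = 0.372).

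Ier2 (chromosome 8, 85387960 to 85389483, minus strand), a nuclear protein of the immediate early response, stood at 1.28, 2.93, 3.67 and 2.86 CPM in VEH and at 4.403, 3.75, 4.26 and 3.09 CPM in BAY. Only BAY replicate 4 lay inside the VEH range. Its log2 fold change was 0.62 (SE 0.33; limma, unadjusted P = 0.0880, adjusted P = 0.572). Without VEH replicate 3 it was 0.80 (limma, unadjusted P = 0.0360, adjusted P = 0.476), and without VEH replicate 1 it was 0.29.

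The 3 genes without overlap between the groups, Nr4a1, Arc and Dusp1, compare with 4.2% of all genes whose 4 BAY values lay above the 4 VEH values. BAY replicate 3 was the highest of the 8 mice for every gene but Ier2, and BAY replicate 2 was the lowest of its group for 8 of the 10. VEH replicate 1 was the lowest of the 8 mice for 6 genes, while it was the highest of its group for Nr4a3. The summed level of the 10 genes was 89.4, 124, 110.2 and 99.4 CPM in VEH and 246, 147, 296 and 229 CPM in BAY. Nr4a1 and Dusp1 made up most of each sum. Without BAY replicate 3, 3 of the 10 genes were higher at an unadjusted limma P under 0.05 and only 1 passed the fold limit as well, and without BAY replicate 2, 6 were higher and 5 passed both limits.

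**Figure D2:**
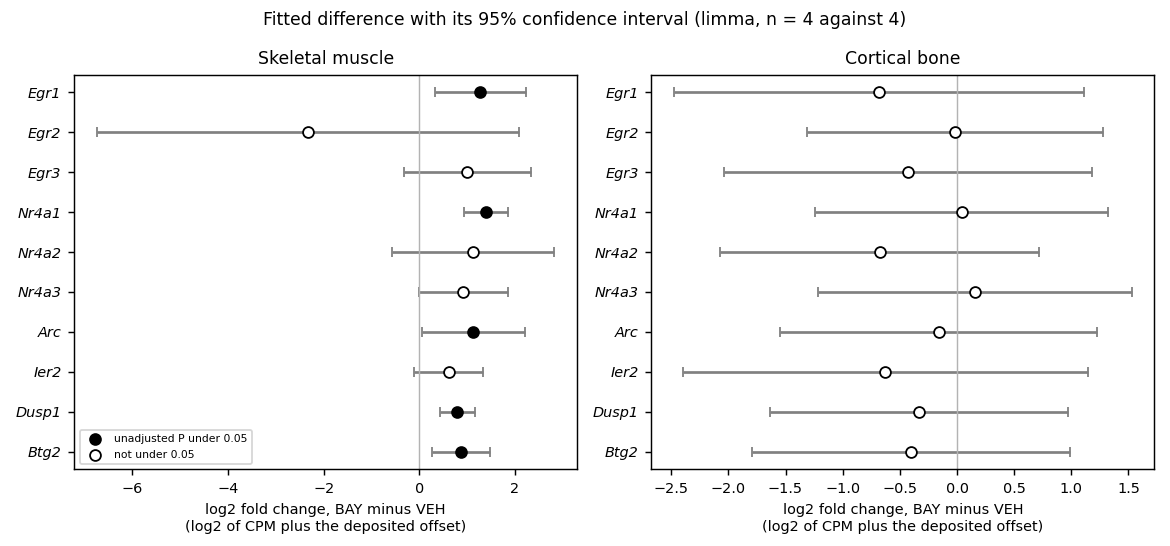
Log2 fold change, BAY against VEH, of the 10 genes in skeletal muscle and cortical bone (horizontal axis), with bars for the 95% interval from limma and filled points for an unadjusted P under 0.05. The scale differs between the panels. The muscle intervals of Egr1, Nr4a1, Dusp1, Btg2 and Arc lay above 0, and every bone interval spanned 0.

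The windows of 250 bases before the transcript start are shown for the genes that rose together in muscle and had a RefSeq entry (GRCm38.p6, coordinates of that build), with Nr4a3 as their relative. They are written 5′ to 3′ on the gene's strand, and capitals mark TGACG on either strand (CGTCA when read in reverse).
Nr4a1, chr15:101266596-101266845, plus strand: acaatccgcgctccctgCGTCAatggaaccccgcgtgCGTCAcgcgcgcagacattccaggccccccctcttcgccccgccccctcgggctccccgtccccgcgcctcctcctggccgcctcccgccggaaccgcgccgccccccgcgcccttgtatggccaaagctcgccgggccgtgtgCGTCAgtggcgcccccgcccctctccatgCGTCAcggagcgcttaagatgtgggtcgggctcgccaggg
Nr4a3, chr4:48045055-48045304, plus strand: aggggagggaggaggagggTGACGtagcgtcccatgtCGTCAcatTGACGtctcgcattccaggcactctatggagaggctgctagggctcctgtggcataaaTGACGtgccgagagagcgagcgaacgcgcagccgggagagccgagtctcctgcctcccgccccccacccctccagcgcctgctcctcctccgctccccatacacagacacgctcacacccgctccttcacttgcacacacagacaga
Dusp1, chr17:26508473-26508722, minus strand: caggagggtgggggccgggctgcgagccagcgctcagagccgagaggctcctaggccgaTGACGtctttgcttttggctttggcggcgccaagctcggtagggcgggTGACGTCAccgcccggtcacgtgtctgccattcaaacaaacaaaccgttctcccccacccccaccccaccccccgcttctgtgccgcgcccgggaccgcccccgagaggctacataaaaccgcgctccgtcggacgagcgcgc
Btg2, chr1:134079156-134079405, minus strand: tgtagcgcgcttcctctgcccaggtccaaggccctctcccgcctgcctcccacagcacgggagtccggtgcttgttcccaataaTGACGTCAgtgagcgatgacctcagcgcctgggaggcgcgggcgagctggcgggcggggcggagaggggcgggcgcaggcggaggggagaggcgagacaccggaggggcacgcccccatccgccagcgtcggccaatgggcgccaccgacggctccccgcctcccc
Nr4a1, Nr4a3 and Nr4a2 held 4 matches each, Dusp1 held 3, of which 2 overlap in 1 palindrome TGACGTCA, and Btg2 held 2, both in 1 such palindrome. Windows were found for 6 of the 10 genes, and Egr1, Egr3, Arc and Ier2 had no entry. Egr2 had 5 windows, 3 of them overlapping, and the other genes 1 each. By window, TGACG stood in 8 of these 10, against 17.8% of the 32851 windows of all genes, and 3 or more matches stood in 0.688% of those. Nr4a2 carried the same number of matches as Nr4a1, at a muscle level of 0.340 against 34.2 CPM per kilobase.

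Egr2 is shown for its CArG box, the letters CC, then 6 of A or T, then GG, which was searched on both strands and is in capitals here.
Egr2, chr10:67537619-67537868, plus strand: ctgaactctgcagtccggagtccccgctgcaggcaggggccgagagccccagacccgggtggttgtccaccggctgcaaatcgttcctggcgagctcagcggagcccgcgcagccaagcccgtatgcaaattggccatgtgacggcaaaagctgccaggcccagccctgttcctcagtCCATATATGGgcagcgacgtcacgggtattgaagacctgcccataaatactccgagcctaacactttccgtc
The same box stood in 3 overlapping windows of Egr2, a different box in another, and none in a window of the other 5 genes. Over all windows, overlapping ones of a gene counted each, 1.47% held a box. The GCGTG core, searched on both strands, stood in 4 of the 10 windows, those of Nr4a1, Nr4a2, Nr4a3 and Btg2, and in 28.2% of all windows. The GTGGGCG core stood in 1 window of Egr2 and in 7.02% of all windows. A match describes letters in these windows and does not show binding.

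Related genes were grouped by function. Of the AP-1 family, the FOS and JUN proteins that pair to bind DNA, 7 of 9 genes were in the muscle table and 4 (57.1%) were higher in BAY at an unadjusted limma P under 0.05, with none lower, against 6.71% of all genes. Fos rose from 1.64 ± 0.906 to 6.77 ± 3.27 CPM (SD, n = 4 each), a log2 fold change of 2.04 (SE 0.52; limma, adjusted P = 0.291), and the lowest BAY mouse, at 2.12 CPM, lay below the highest VEH mouse, at 2.81 CPM. Junb, a JUN protein of the early response, rose from 3.64 ± 1.28 to 10.2 ± 5.71 CPM without overlap, a log2 fold change of 1.40 (SE 0.38; limma, adjusted P = 0.295).

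Of 49 other immediate early genes 47 were in the muscle table, 19 (40.4%) were higher at that threshold, none was lower, and in 12 every BAY value was above every VEH value. Of all genes 6.71% were higher and 4.2% were so placed. Their median log2 fold change was 0.35. Past the fold limit of 2 stood Zfp36, Gadd45g, Cebpd and Plk3. Zfp36, which binds AU-rich transcripts and hastens their decay, rose from 5.28 ± 0.811 to 14.1 ± 3.29 CPM, a log2 fold change of 1.40 (SE 0.20; limma, adjusted P = 0.184). Gadd45g, a stress sensor, rose from 13.2 ± 3.58 to 29.6 ± 9.65 CPM (limma, log2 fold change 1.16, adjusted P = 0.206). Cebpd, a bZIP transcription factor of acute responses, rose from 7.42 ± 1.62 to 16.4 ± 6.73 CPM with overlap (limma, log2 fold change 1.03, adjusted P = 0.335). Plk3, a stress kinase, rose from 0.791 ± 0.354 to 2.00 ± 0.508 CPM (limma, log2 fold change 1.42, adjusted P = 0.371).

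Of 26 kinases and factors upstream of these genes 3 (11.5%) were higher and 1 lower at the unadjusted threshold, near the 9.49% higher of all genes whose mean reached 1 CPM, and their median log2 fold change was 0.09. In either direction 4 passed, but 0 with no trend, 1 with the replicate block and 1 to 8 with 1 mouse left out (8 without VEH replicate 2). Map2k2, a kinase of the ERK cascade, had the smallest P with 79.6 ± 9.38 CPM in VEH and 102 ± 19.99 CPM in BAY. Of 8 partners and repressors of EGR and NR4A proteins 2 (25.0%) were higher, and 1 under most alternatives, and Hdac5, a histone deacetylase that restrains MEF2 targets, had the smallest P with 45.5 ± 9.21 and 67.7 ± 6.10 CPM. Of 8 heat shock genes, which cellular stress is known to induce, none was higher and 2 were lower, against 3.07% of all genes lower. The list had 0 genes at that threshold with no trend, 1 with the replicate block, 4 with median centring and 0 to 3 with 1 mouse left out (0 without VEH replicate 3). Dnaja1, an HSP70 cochaperone, had the smallest P of them, with 16.01 ± 1.86 CPM in VEH and 11.7 ± 2.78 CPM in BAY.

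**Figure D3:**
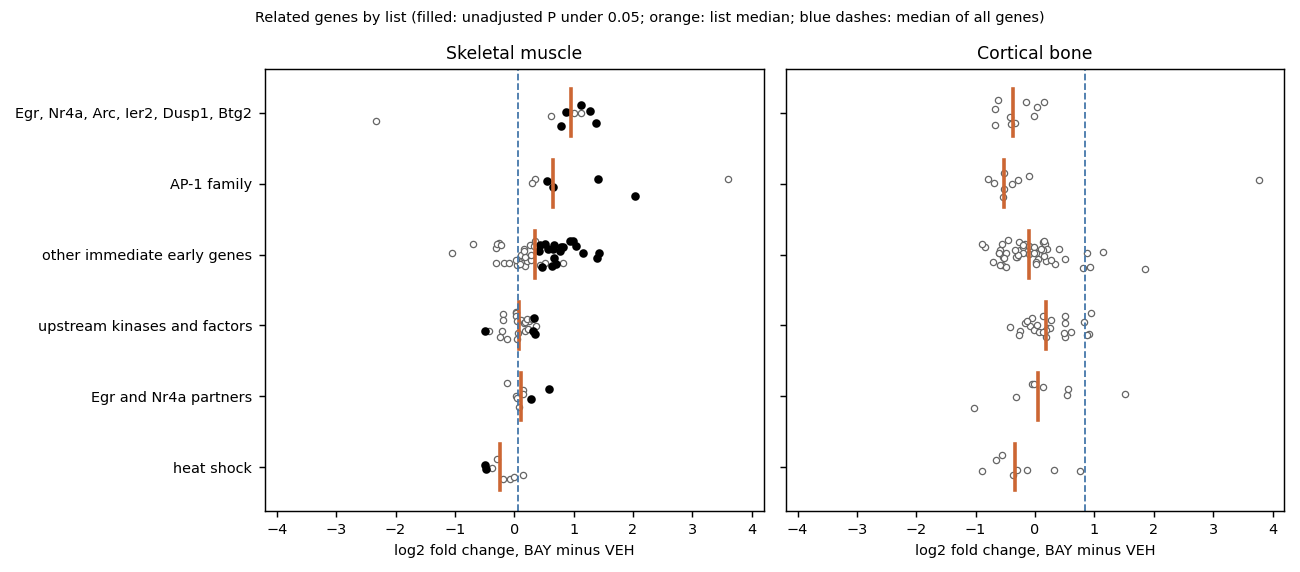
Log2 fold change, BAY against VEH (horizontal axis), of each gene of the related lists and of the 10 genes, in skeletal muscle and cortical bone, with 1 point per gene, a bar at the list's median and a dashed line at the median of all genes. In muscle the 10 genes, the AP-1 family and the other immediate early genes had medians of 0.96, 0.65 and 0.35, and in bone these medians were -0.37, -0.52 and -0.11 against 0.84 for all genes.

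The marker sums of some other cell types also differed between the groups in muscle, in either direction. Endothelial markers summed to 179 to 203 CPM in VEH and 205 to 245 CPM in BAY, a ratio of means of 1.14, with 3 of the 5 higher at an unadjusted limma P under 0.05, against 6.71% of all genes higher and 3.07% lower. Smooth muscle markers summed to 108 to 153 CPM in VEH and 131 to 181 CPM in BAY, a ratio of 1.25, with 1 of 5 higher. Adipocyte and fibroblast markers, with 2 of 5 lower in each list, were high in 1 library, VEH replicate 3, at 86.2 and 202 CPM, against 1.67 to 5.01 and 53.9 to 74.6 CPM in the other VEH mice and at most 2.94 and 79.3 CPM in BAY. That library also held the most osteoblast, macrophage, osteoclast and osteocyte marker reads of the 8, at 95.9, 20.1, 6.69 and 1.19 CPM, and the most Schwann cell marker reads, at 38.97 against 13.97 to 27.2 CPM. Of the bone cell lists, 2 of 5 osteoblast, 2 of 5 osteocyte and 4 of 5 osteoclast markers were in the muscle table. Bglap, Bglap2, Ibsp, Sost, Mepe and Fgf23 were among those absent, so these sums do not show bone cells. None of the 5 neutrophil markers was in the muscle table. Without VEH replicate 3, 6 of the 10 early genes were higher at an unadjusted limma P under 0.05, and the log2 fold change was 1.56 for Egr1, 1.40 for Nr4a1, 0.85 for Dusp1 and 0.41 for Nr4a3, against 1.27, 1.38, 0.79 and 0.91 with all mice. The part of these cells in the differences of the early genes was not tested.

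The spread between mice of a group differed among the genes. As the SD of log2(CPM + 1) within groups it was 0.74 for Egr1, 0.77 for Nr4a2 and 0.76 for Nr4a3, each above 98.9% of the genes whose mean reached 1 CPM, whose median was 0.27. Dusp1 with 0.27 and Arc with 0.24 lay near that median. For Nr4a1 the coefficient of variation within groups was 26.2%, where counting alone gives 4.38%, and for Egr1 it was 54.3% against 15.5%. For Arc it was 33.5% against 37.3%, so that the spread of Arc was no larger than that of counting.

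Among 13170 muscle genes whose mean reached 1 CPM, likeness to the genes was measured as the root mean square difference from their mean scaled profile over the 8 libraries. The nearest outside the 10 were Nckap5l at 0.27, Hmcn2 at 0.28, Lims2 at 0.29, Plekhg3 at 0.30 and Ip6k1 at 0.30. Egr2 did not reach that mean, and it was left out of the profile. Of the other 9 genes, Btg2 at 0.31 and Dusp1 at 0.33 were nearest to that mean and Nr4a3 at 1.015 was the farthest. These values describe 8 libraries that share the group difference.

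In cortical bone none of the 10 genes passed an unadjusted limma P of 0.05 in either direction, and 0 passed with voom weights. Over all bone genes 0.64% passed it with limma, 0.545% as higher and 0.095% as lower, and 0.206% as higher where the mean reached 1 CPM. With voom weights 3.68% passed as higher and 0.00514% as lower, and none passed an adjusted P of 0.05 with either tool. The log2 fold changes ran from -0.68 for Egr1 and Nr4a2 to 0.16 for Nr4a3, with standard errors of 0.59 to 0.83, and 2 of the 10 were above 0. The groups overlapped for each of the 10, whereas in 0.354% of all bone genes every BAY value was above and in 0.0514% below every VEH value. Of all bone genes 80.9% were above 0, and their median log2 fold change was 0.84. VEH replicate 1 had 13219 genes at 0, against 1422 to 3405 in the other bone libraries, and the smallest Olfr share. The part of this in the median of 0.84, and so in the values after centring, was not tested. With each library centred on its median, all 10 genes had log2 fold changes below 0, from -1.53 to -0.69, and again none passed (limma, smallest unadjusted P = 0.0650). The intervals were wide, from -2.47 to 1.11 on the log2 scale for Egr1 and from -1.24 to 1.32 for Nr4a1. The upper bounds of the 10 ran from 0.72 for Nr4a2 to 1.53 for Nr4a3. Every interval spanned 0, so the direction of a difference was not settled for any of the 10. The median of the 10 was -0.37, and it moved to 0.05 without VEH replicate 3, with 5 of the 10 above 0, to -0.75 without BAY replicate 3, with 9 of the 10 below 0, and to -0.65 without VEH replicate 2. With 1 mouse left out Egr1 ran from -1.30 to -0.09, Ier2 from -1.28 to -0.06, Dusp1 from -0.69 to -0.04 and Btg2 from -0.83 to -0.05.

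**Figure D4:**
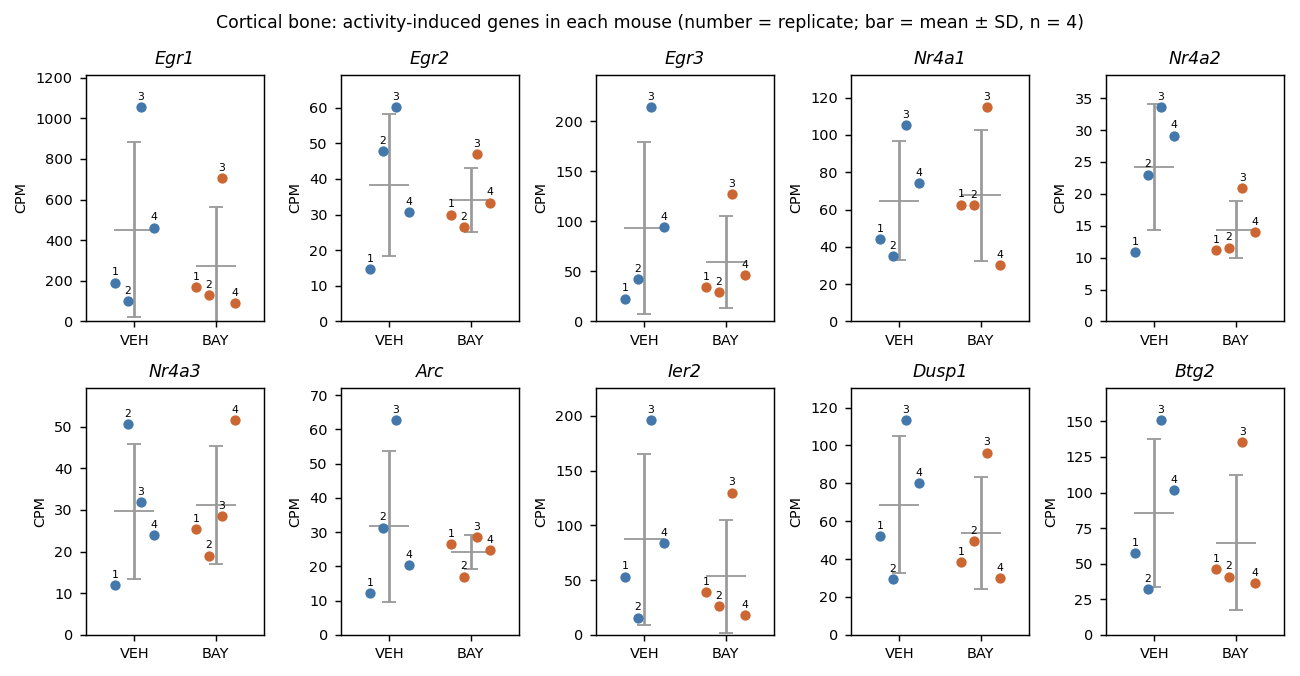
CPM of the 10 genes in cortical bone (vertical axes, linear, each from 0), with VEH and BAY on the horizontal axis, 1 point per mouse numbered by replicate, and bars for the mean ± SD of 4 mice. The groups overlapped for every gene, and replicate 3 of VEH was the highest of the 8 mice for 8 of the 10.

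Egr1 had the highest level per kilobase of the 10 genes in bone and stood at 191, 99.4, 1057 and 462 CPM in VEH and at 170.3, 130.3, 704 and 90.3 CPM in BAY. Replicate 3 of each group was the highest of its group, and VEH replicate 4 came next. The means were 453 ± 431 and 274 ± 289 CPM (SD, n = 4 each), and the log2 fold change of -0.68 had an SE of 0.83 (limma, unadjusted P = 0.427, adjusted P = 0.887). Egr3 followed the same order at the top, with 22.9, 42.3, 214 and 93.9 CPM in VEH and 34.4, 29.4, 127 and 46.2 CPM in BAY. Egr2 varied less, with 14.7, 47.9, 60.2 and 30.6 CPM in VEH and 29.9, 26.5, 46.8 and 33.3 CPM in BAY. The 3 genes had log2 fold changes of -0.68, -0.43 and -0.02 in the order Egr1, Egr3 and Egr2.

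Nr4a1 in bone stood at 44.3, 35.0, 105 and 74.3 CPM in VEH and at 62.6, 62.4, 115 and 30.1 CPM in BAY. BAY replicate 3 and VEH replicate 3 were again highest, and the means of 64.7 ± 31.8 and 67.6 ± 35.2 CPM lay within the spread of either group. Its log2 fold change was 0.04 with an interval of -1.24 to 1.32 (limma, unadjusted P = 0.947, adjusted P = 1.00). Nr4a2 stood at 10.9, 23.0, 33.7 and 29.1 CPM in VEH and at 11.2, 11.6, 20.9 and 13.97 CPM in BAY. VEH replicates 2, 3 and 4 were its 3 highest mice, yet VEH replicate 1 was the lowest of all 8 (limma, log2 fold change -0.68, unadjusted P = 0.314, adjusted P = 0.887). Nr4a3 had another order than the rest, with 11.9, 50.6, 31.9 and 24.0 CPM in VEH and 25.5, 19.0, 28.5 and 51.6 CPM in BAY. Its highest values were in BAY replicate 4 and VEH replicate 2, the libraries with the most Olfr reads at 3.52% and 2.92% of CPM.

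Dusp1 ran from 29.5 to 113 CPM in VEH and from 30.1 to 96.2 CPM in BAY, and Btg2 from 32.2 to 151 and from 36.5 to 135 CPM. Ier2 ran from 15.7 to 196 CPM in VEH and from 18.3 to 130 CPM in BAY, and Arc from 12.2 to 62.7 and from 17.0 to 28.5 CPM. For each of the 4 genes VEH replicate 3 held the highest value of the 8 libraries and BAY replicate 3 the highest of BAY. Their log2 fold changes were -0.33 for Dusp1, -0.40 for Btg2, -0.63 for Ier2 and -0.16 for Arc, and their unadjusted limma P ran from 0.458 to 0.809. For 6 genes, Egr1, Egr3, Nr4a1, Ier2, Dusp1 and Btg2, the 3 highest libraries were VEH replicate 3, BAY replicate 3 and VEH replicate 4.

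Markers of osteoblasts, osteocytes, osteoclasts, neutrophils and macrophages were highest in the same 3 libraries, and those of the other cell types were not. Osteoblast markers stood at 18153 CPM in VEH replicate 3, 14293 in VEH replicate 4 and 14090 in BAY replicate 3, against 856 to 4517 CPM in the other 5. Osteocyte markers summed to 3795, 882 and 1568 CPM in those 3 libraries and to 71.5 to 226 CPM in the other 5. Osteoclast markers summed to 504, 711 and 603 CPM in VEH replicate 3, BAY replicate 3 and VEH replicate 4, against 65.8 to 173 CPM. Neutrophil markers summed to 332, 739 and 1398 CPM there, against 45.1 to 153 CPM, and macrophage markers to 122, 220 and 236 CPM, against 30.4 to 76.6 CPM. Muscle fibre markers were highest in BAY replicates 1 and 2, at 18735 and 21056 CPM. Erythroid markers were highest in VEH replicate 1 at 620 CPM, and smooth muscle markers in BAY replicate 1 at 239 CPM. Schwann cell and adipocyte markers were highest in VEH replicate 2, at 179 and 46.0 CPM. Fibroblast markers stood at 615 CPM in VEH replicate 1, above BAY replicate 3. Endothelial markers stood at 205 CPM in BAY replicate 4, above VEH replicate 3 at 199.8 CPM. The summed level of the 10 genes was 471, 407, 2026 and 1000.2 CPM in VEH and 484, 413, 1432 and 375 CPM in BAY, with Egr1 the largest part of each sum. The part of these cell types in the order of the mice was not tested.

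The Olfr reads give a level to read the bone values against. Per kilobase of transcript the 10 genes stood at 68.2 to 1392 times the median Olfr gene in VEH replicate 1, at 4.401 to 186 times in VEH replicate 3 and at 1.81 to 64.8 times in BAY replicate 3. In VEH replicate 2 they stood at 0.687 to 3.15 times that median and in BAY replicate 4 at 0.335 to 2.29 times. The ranges were 0.767 to 18.8 times in VEH replicate 4, 0.905 to 14.6 times in BAY replicate 1 and 1.02 to 12.2 times in BAY replicate 2. Nr4a2, Nr4a3 and Arc were the genes at or under the Olfr median in some of these 5 libraries. In VEH replicate 1 the Olfr median was 0.0306 CPM per kilobase, where 1 read was worth 0.144 CPM, so the multiples there are imprecise. Without VEH replicate 2 and BAY replicate 4 the log2 fold changes ran from -0.91 to 0.20 and none passed an unadjusted limma P of 0.05. With the Olfr level subtracted, all 10 were below 0, from -1.68 to -0.09, and again none passed.

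**Figure D5:**
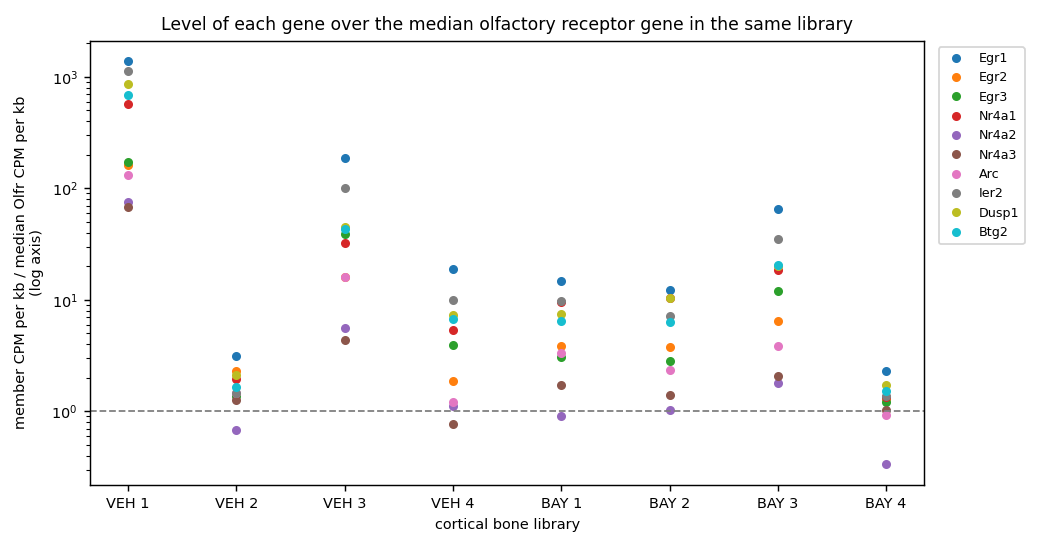
Level per kilobase of the 10 genes in each bone library, divided by that of the median Olfr gene in the same library (log axis), with 1 point per gene and a line at 1. In VEH replicate 2 and BAY replicate 4 no gene exceeded 3.15 times the Olfr median. In VEH replicate 1 the lowest gene stood at 68.2 times a median of only 0.0306 CPM per kilobase.

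None of the related lists held a gene past an unadjusted limma P of 0.05 in bone, in either direction, where 0.64% of all genes passed, so the count of 0 is near that share. The AP-1 family, with 9 of 9 genes in the table, had a median log2 fold change of -0.52, the 49 other immediate early genes -0.11, the 26 upstream genes 0.18, the 8 partners 0.05 and the 8 heat shock genes -0.34, all under the 0.84 of all genes. Fos stood at 560.5 ± 631 CPM in VEH and 322 ± 359 CPM in BAY (SD, n = 4 each), a spread as large as the mean. The genes with the smallest P of their lists were Batf, Npas4, Camk2a, Rxrg and Hsp90aa1, with unadjusted limma P of 0.125 to 0.266. Npas4, a neuronal activity factor, stood at 15.5 ± 19.6 CPM in VEH and 24.9 ± 11.6 CPM in BAY, and Hsp90aa1, a cytosolic chaperone, at 127 ± 76.2 and 77.6 ± 81.9 CPM.

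Among 35016 bone genes whose mean reached 1 CPM, those near the mean profile of the 10 included Fam20c at a root mean square difference of 0.24, Pdgfa at 0.25, Pcdhgc3 at 0.28 and Lrrc47 at 0.29. Fam20c encodes the kinase of secreted mineral matrix proteins and Pdgfa a growth factor of mesenchymal cells. Egr3 at 0.26 was the nearest of the 10 and Nr4a3 at 1.12 the farthest, as in muscle.

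The order of the 10 genes by level per kilobase differed between the tissues. In muscle Nr4a1 was first at 34.2 ± 18.6 CPM per kilobase (SD, n = 8) and Dusp1 second at 19.97 ± 6.85, each above the next in all 8 libraries. Btg2 followed at 4.14, above Nr4a3 in 7 of 8 libraries. Nr4a3, Ier2 and Egr1 at 2.22, 2.15 and 1.90 could not be ordered beyond their spread, nor could Arc, Nr4a2, Egr3 and Egr2 at 0.394, 0.340, 0.324 and 0.214, while Egr1 was above Arc in 8 of 8 libraries. In bone Egr1 was first at 80.8 ± 78.5 CPM per kilobase, above Ier2 at 46.1 in all 8 libraries. Ier2, Dusp1, Btg2 and Nr4a1, at 46.1, 30.8, 27.4 and 26.0, each stood above the next in 5 to 7 of 8 libraries, followed by Egr3 at 17.5, Egr2 at 12.2, Arc at 9.13, Nr4a3 at 5.31 and Nr4a2 at 4.05. These bone levels include any background reads. The median Olfr gene stood at 0.0306 CPM per kilobase in VEH replicate 1 and at 1.27 to 8.76 in the other bone libraries. The means of Nr4a3 and Nr4a2 lay within that range. Between neighbours in bone the differences of the means were smaller than the larger of both SDs over libraries, that of Egr1 and Ier2 included. The tables of the tissues were normalized separately, so no test was made across them, and the Egr1 levels of 1.90 and 80.8 CPM per kilobase are set side by side only.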

How the data were processed

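Bulk RNA-seq libraries of 4 BAY and 4 VEH mice per tissue, 16 in all, were grouped by the sample labels, which number separate mice. The muscle column of VEH replicate 3 is named as a replacement. Per the methods and labels, the authors trimmed reads, aligned them with STAR (version 2.7.8a) to mm39, counted Ensembl release 104 genes by Partek's E/M method, and deposited the log2 of CPM plus a small offset. This offset and log2 were undone here to give CPM, with an offset of 0.0004 in muscle and 0.0001 in bone. The value of 1 read was recovered from the steps of low values. Of values up to 50 reads, 81.2% to 83.3% in muscle and 86.2% to 88.3% in bone were whole within 0.02, as were 46 of 46 and 25 of 25 values of the 10 genes. Floors of 3 reads cover counting error only.

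BAY and VEH were compared in each tissue with limma (version 3.58.1, R version 4.3.3; lmFit and eBayes with a trend) on the deposited log2 values, two-sided, with P adjusted by Benjamini-Hochberg over the whole table, and by exact permutation of the 8 mice. Differences are of log2(CPM + offset), and the small offset makes those of genes with 0 reads in a library large. Alternatives were pseudocounts of 1 and 0.1 CPM, leaving out genes under a mean of 1 CPM, centring on medians, no trend, voom on the recovered reads, a replicate block and leaving out single mice. Both bone alternatives on Olfr reads were added after seeing the data. The fits were also run on simulated counts with the same dispersion for every gene and changes only in well-counted genes. That run does not cover genes near the floor or the wide spread of the bone libraries. The 10 genes, the related lists and the tests were chosen with earlier results of these data known. Named beyond them were listed genes past an unadjusted P of 0.05 and a fold change of 2, the gene with the smallest P in a list with none, and the 5 nearest profiles per tissue, of which 1 is not reported here. Lengths were those of Ensembl canonical transcripts (GENCODE release M39), and promoters came from RefSeq (GRCm38.p6).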

Additional observations from a re-analysis of the deposited data

Results flagged for a closer look

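Of 40 groups of 4 mice, the 10 genes in both tissues and both treatments, 2 had a mouse far from the other 3 by Dixon's test, and chance gives about 1 in 20. Egr1 in cortical bone of BAY replicate 3 was 704 CPM, with the other BAY mice at 90.3 to 170.3 CPM and a gap of 0.870 of the group's range. Btg2 in the same library was 135 CPM, with the others at 36.5 to 46.0 CPM and a gap of 0.904. That library also held the most osteoblast marker reads of its group, 14090 CPM against 1049.6 to 1319.98 CPM, and the most osteoclast (711 against 65.8 to 173 CPM), neutrophil (739 against 45.1 to 117 CPM), macrophage (220 against 30.4 to 75.1 CPM) and fibroblast (549 against 173 to 196 CPM) marker reads. The part of these in both values was not tested.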

How the results depend on the processing

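In muscle the count of higher genes among the 10 was 5, and 4 without a trend (Egr1 lost) and with the replicate block (Arc lost), 7 with a pseudocount of 1 CPM, and 3 to 6 with 1 mouse left out. Those past the fold limit as well numbered 3, or 2 with a pseudocount of 1 CPM (Arc 0.56 against 1.13), no trend or the block, and 1 to 5 with 1 mouse left out. Over all muscle genes 510 passed both limits, 52 with a pseudocount of 1 CPM, 193 with the filter and 448 to 567 with 1 mouse left out. The cause of these changes was not tested. Of the related lists at an unadjusted P under 0.05, the partners had 2 genes, or 1 with either pseudocount, the filter, centring, no trend, voom or the block. The heat shock list had 2, or 4 with centring, 0 with no trend, 1 with the block and 0 to 3 with 1 mouse left out. The upstream list had 4, or 0 with no trend, 1 with the block and 1 to 8 with 1 mouse left out. With 1 mouse left out the partners had 1 to 2, the AP-1 family 4 to 5 and the other early genes 14 to 24. Egr2 turned to 0.40 without BAY replicate 2 (range -3.53 to 0.40).

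The replicate numbers did not pair the muscle mice (correlations of -0.10 to 0.04 for equal numbers) or, in all pairs, the bone mice (-0.08 to 0.49), of which numbers 3 and 4 correlated best with their own. With the replicate block Arc had an unadjusted P of 0.0543 by limma.

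In bone none of the 10 genes passed under any alternative run. Over all bone genes 249 passed, 82 with the filter, 443 with centring, 408 with no trend, 1433 with voom, 402 with Olfr subtracted, and 115 to 1116 with 1 mouse left out (1116 without VEH replicate 2). The other early genes had 1 with centring and 1 with voom against 0, and 0 to 2 with 1 mouse left out. The sign turned for Nr4a1 and Nr4a3 with centring (-0.81 and -0.69) and with Olfr subtracted (-0.18 and -0.093), and for Egr2 with voom (0.19) and without both libraries richest in Olfr (0.15). With 1 mouse left out the sign also turned for Egr2 (-0.42 to 0.26), Egr3 (-0.94 to 0.13), Nr4a1 (-0.27 to 0.38), Nr4a3 (-0.22 to 0.47) and Arc (-0.53 to 0.26). Egr1, Nr4a2, Ier2, Dusp1 and Btg2 stayed below 0 in bone under every alternative run, and with 1 mouse left out they ran from -1.30 to -0.09 (Egr1), -1.02 to -0.48 (Nr4a2), -1.28 to -0.06 (Ier2), -0.69 to -0.04 (Dusp1) and -0.83 to -0.05 (Btg2). The median of the 10 was -0.37, 0.05 without VEH replicate 3, -0.75 without BAY replicate 3 and -0.65 without VEH replicate 2. Depth fell to 930307 reads in bone, in BAY replicate 4.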
